A study of Mus musculus with 27 samples.

Results

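Bone-forming primary osteosarcomas were taken here as the mouse primary tumours whose Ibsp level, the log2 value of the authors' deposited series matrix for the brightest of 3 Ibsp probes, lay above 11. Ibsp encodes bone sialoprotein, a mineral-binding protein of bone matrix. The rule kept 14 of the 18 primaries and of the 27 arrays of the series, 4 from localized tumours and 10 from tumours that had metastasised, with 1 array per tumour. The members ran from 14.09 in RF-43 to 15.60 in RF-212. Just outside the limit lay the metastatic tumour FC-28 at 7.72, followed by the metastatic CR-45 at 5.88 and the localized RF-56 at 5.79 and CR-65 at 5.51. A minimum of 12 kept the same 14 tumours.

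**Figure D1:**
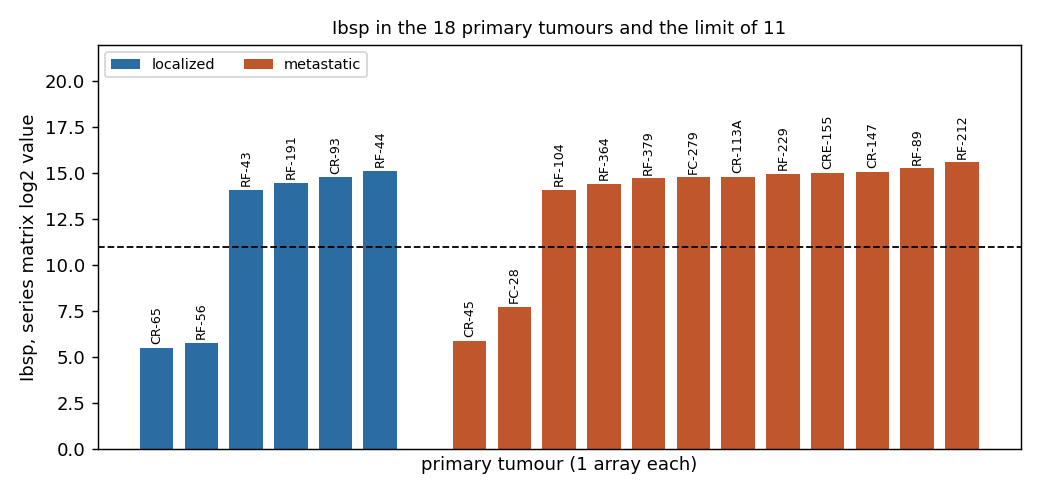
Series matrix log2 value of Ibsp (y axis, from 0) in each of the 18 primary tumours (bars, named by specimen), localized in blue and metastatic in orange, with the limit of 11 as a dashed line. The 14 members lie between 14.09 and 15.60 and the other 4 tumours between 5.51 and 7.72.

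The tumours arose in mice carrying Col2.3-Cre, a transgene in which a 2.3 kb rat Col1a1 promoter drives Cre recombinase in the osteoblast lineage. Those mice had been crossed either to floxed p53 mice, whose p53 gene Cre excises between introns 1 and 10, or to LSL-p53R172H mice, in which Cre switches on a point-mutant p53. All lines had been backcrossed to C57BL/6. Localized and metastatic tumours therefore share the Cre driver and a Cre-altered p53 gene, and the labels give neither the p53 allele of each tumour nor the age, sex or skeletal site. The localized group consisted of CR-93, RF-44, RF-191 and RF-43. The metastatic group consisted of CRE-155, RF-364, CR-147, RF-379, RF-212, CR-113A, RF-89, FC-279, RF-229 and RF-104. The study's stated question was which genes distinguish primaries that spread, and the restriction asks it among tumours that make bone matrix.

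Osteosarcoma is a malignant bone tumour whose cells resemble osteoblasts and lay down osteoid, and it spreads mainly to the lung. Osteoblasts secrete type I collagen, bone sialoprotein and osteocalcin. Their differentiation is steered by Wnt and bone morphogenetic protein (BMP) signals and by the antagonists of both. The tissue around them holds marrow, fibroblasts, vessels and muscle, whose RNA enters a bulk sample.

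Genes of bone formation were broadly detected in these tumours. Of 18 osteoblast and bone matrix genes on the array, 17 were detected on all 14 arrays, while 9 or 10 were detected on each of the 4 other primaries. The mean log2 intensity of the list lay between 10.47 and 12.09 in the members and between 6.74 and 7.09 in the others. The tumours were chosen by Ibsp, so this describes the choice and is no test. Muscle RNA was still present after the restriction. The mean log2 intensity of the skeletal muscle list ranged from 5.52 to 12.71 across the 14 tumours, and a difference in a bulk sample cannot separate fewer cells of a type from less RNA per cell.

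Technical features of the arrays were as follows. Each of the 14 arrays detected 44.2% to 46.9% of the probes, and arrays correlated at 0.941 to 0.978 with each other. The background of an array was read as the median signal of its probes with a detection score under 0.5. The widest gap of its log2 over the 27 arrays divided the 14 arrays into 2 classes. A low-background class held the localized CR-93 and RF-44 and the metastatic RF-104. A high-background class held the localized RF-191 and RF-43 and the other 9 metastatic tumours. Values within the high-background class are therefore given where they bear on a result, and its localized arm has 2 tumours. Within that class the background was 79.2 in RF-191 and 73.8 in RF-43, above the 9 metastatic tumours at 53.9 to 69.5. The class therefore does not match the groups for background, and the part of background in its values was not tested. The labels do not say that each specimen was a separate mouse, so p-values measure the spread between specimens.

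No gene passed the test at this sample size. Of 11865 genes tested between the 10 metastatic and 4 localized tumours with limma, 0 (0%) had a Benjamini-Hochberg adjusted p under 0.05 in either direction, and the smallest adjusted p was 0.0902, for C1qtnf1. Before adjustment 373 genes (3.14%) stood higher in metastatic tumours at a p under 0.05 and 610 (5.14%) stood lower, where 593 in all would be 5% of the genes. Single tumours moved the adjusted count: without the localized CR-93 12 genes passed, without the metastatic RF-89 or RF-212 1 gene each, and without any other tumour 0. The genes that passed without CR-93 included C1qtnf1, C1qtnf3, Hr, Nkd2, Lef1 and Arhgap44. Among the high-background arrays alone 10 genes passed, Nkd2, Lef1 and Arhgap44 among them. Hoxb9, singled out after its values were seen, passed in both sets and had the smallest adjusted p without CR-93, at 0.00645. The levels of the groups did not overlap at all for 20 genes (0.169%) higher in metastatic tumours and for 34 (0.287%) lower. The log2 difference of a gene is its mean log2 intensity in metastatic minus that in localized tumours, and over all genes its median was 0.01. The genes below are therefore described by their levels and differences, and each difference has an adjusted p above 0.05 unless a narrower set of arrays is named.

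The gene with the smallest p was C1qtnf1, secreted by many tissues and one of the C1q and TNF related proteins, which share a globular domain with complement C1q and adiponectin. Its log2 intensity was 9.63 in RF-191, 9.71 in CR-93, 9.88 in RF-44 and 10.40 in RF-43. The 10 metastatic tumours ran from 7.85 through a median of 8.32 to 9.12, so that each of them lay under each localized tumour. The log2 difference was -1.49 (SE 0.22, n = 10 and 4), with an adjusted p of 0.0902. Among the high-background arrays, which are not matched for background between the groups, it was -1.56. In the fit to all 18 primaries the adjusted p was 0.0314 and the log2 difference -1.44; 14 of those arrays are the same.

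Chordin, encoded by Chrd, binds BMPs outside the cell and keeps them from their receptors. Its log2 intensity in the localized tumours was 7.62 in RF-43, 8.31 in RF-191, 8.37 in CR-93 and 9.19 in RF-44. In metastatic tumours it ran from 4.96 to 7.50 with a median of 6.04, again with no overlap. The log2 difference of Chrd was -2.25 (± 0.41 SE, adjusted p 0.234). Chrd was not lower in the metastatic pair outside the Ibsp limit: the mean of CR-45 and FC-28 stood 1.06 above that of CR-65 and RF-56 on the log2 scale, and over all 18 primaries the log2 difference was -1.60.

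Ephrin-A5, encoded by Efna5, is a membrane-anchored ligand of Eph receptor kinases that act in cell repulsion and adhesion. It was 10.90 in RF-43, 11.05 in CR-93, 11.53 in RF-191 and 11.79 in RF-44, against 8.87 to 10.57 (median 10.06) in metastatic tumours. The groups did not overlap, and the log2 difference was -1.37 (± 0.28 SE, adjusted p 0.302). Of the 10 ephrin and Eph receptor genes tested, 9 had a negative log2 difference, with a median of -0.31. The median was -0.19 among the high-background arrays and -0.11 without RF-43. Of the 10, 2 stood lower at an unadjusted p under 0.05, where 5.14% of all genes did. Efna5 was 1 of them and was already known from earlier results of these data, so the count is no separate evidence. The other was Efna4, a sister ligand, whose log2 difference was -0.85 (± 0.38 SE, adjusted p 0.583) with overlapping groups.

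Gper1, a G protein-coupled membrane receptor for oestrogen, lay between 10.14 and 10.78 in the 4 localized tumours, with CR-93 lowest and RF-43 highest. The metastatic tumours ran from 7.68 to 9.91 with a median of 8.69, and the log2 difference was -1.82 (± 0.39 SE, adjusted p 0.368). Mapk8ip1, a scaffold that assembles the JNK kinase cascade, was 8.86 in CR-93, 8.87 in RF-191, 9.31 in RF-44 and 9.47 in RF-43 and between 7.07 and 8.36 (median 7.96) in metastatic tumours. The log2 difference of Mapk8ip1 was -1.33 (± 0.26 SE, adjusted p 0.246). Both genes kept the groups apart.

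Pgbd5, a gene derived from a piggyBac transposase, showed the widest gap between the lowest localized and the highest metastatic tumour among the genes named. The localized tumours were tightly grouped at 9.11 in CR-93, 9.21 in RF-191, 9.36 in RF-44 and 9.46 in RF-43. The metastatic ones spread from 4.75 in RF-364 to 8.36 in RF-212 with a median of 7.21. The log2 difference of -2.25 had an SE of 0.51 and an adjusted p of 0.368, since the metastatic tumours differed widely among themselves. Calumenin, encoded by Calu, a calcium-binding protein of the secretory pathway, combined a high level with a narrow spread. It was 13.71 in RF-43, 13.76 in RF-191, 13.95 in RF-44 and 14.02 in CR-93 against 12.49 to 13.46 (median 13.18), a log2 difference of -0.75 (± 0.18 SE, adjusted p 0.368). All 3 other Calu probes gave the same direction.

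The remaining genes among the 10 of smallest p on the lower side overlapped between groups. Hr, a nuclear receptor corepressor named for the hairless mouse, had a log2 difference of -1.67 (± 0.32 SE, adjusted p 0.234), with 1 metastatic tumour, CRE-155 at 9.05, above the lowest localized one, CR-93 at 8.72. Fscn3, a fascin paralog, was detected in all 4 localized and in 2 of 10 metastatic tumours, those being RF-89 at 6.05 and RF-212 at 7.06, and its log2 difference was -2.25 (± 0.43 SE, adjusted p 0.234). Tspan18, a tetraspanin membrane protein, had a log2 difference of -2.10 (± 0.45 SE, adjusted p 0.368) with RF-89 and CRE-155 reaching into the localized range. C1qtnf6, of the same family as C1qtnf1, had one of -1.48 (± 0.33 SE, adjusted p 0.368), with RF-89 alone inside the localized range.

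**Figure D2:**
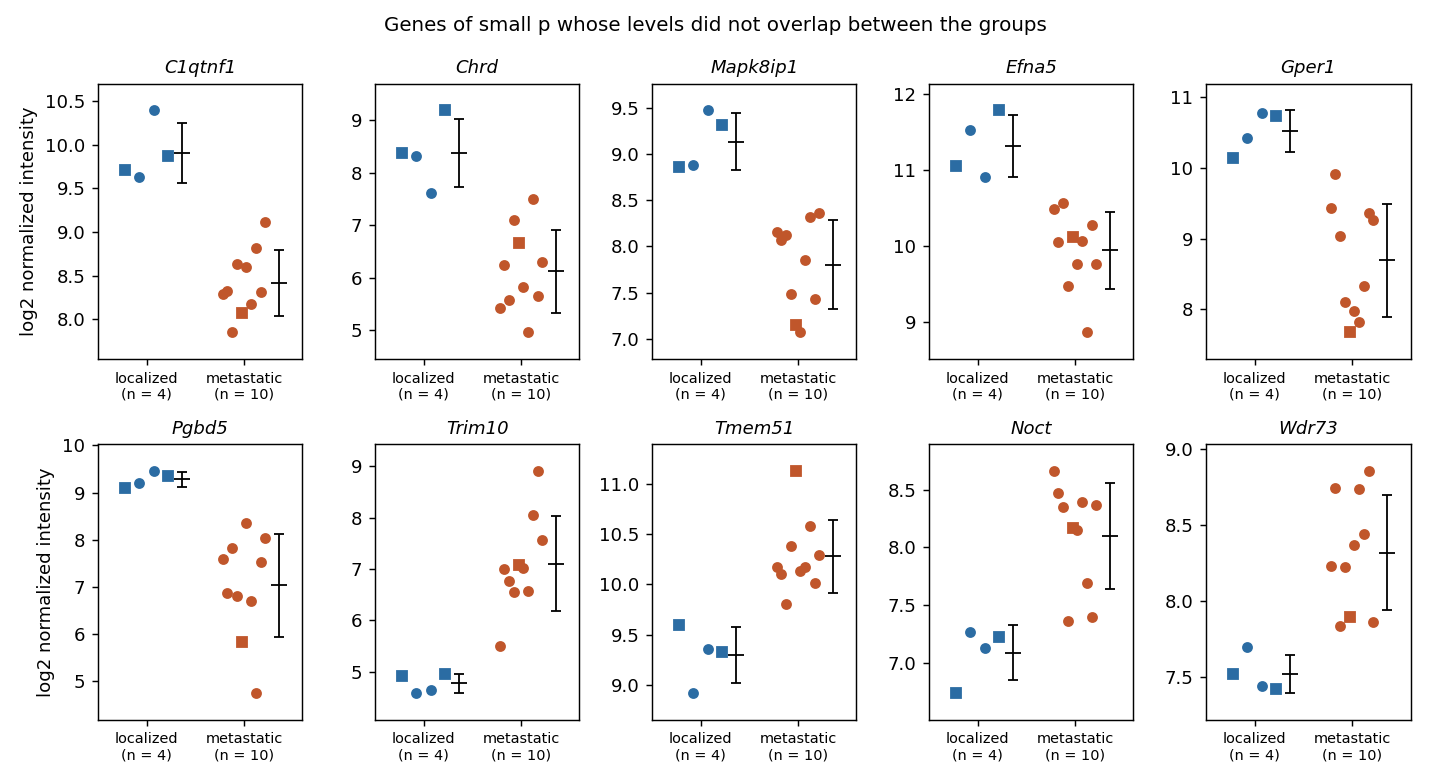
Log2 normalized intensity (y axes) of 10 genes whose levels did not overlap between localized (blue, n = 4) and metastatic (orange, n = 10) bone-forming primaries; squares are low-background and circles high-background arrays, and the black bar is the group mean with its SD. C1qtnf1, Chrd, Mapk8ip1, Efna5, Gper1 and Pgbd5 lie lower and Trim10, Tmem51, Noct and Wdr73 higher in every metastatic tumour.

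On the higher side the smallest p belonged to Trim10, a tripartite motif protein known from terminal red cell differentiation. None of the 4 localized tumours had it above background, at measured values of 4.58, 4.64, 4.90 and 4.95 in RF-191, RF-43, CR-93 and RF-44. All 10 metastatic tumours did, from 5.50 in CR-113A through a median of 7.02 to 8.91 in RF-379. Against the lowest signal that counts as detected, Trim10 was at least 3.59-fold higher in metastatic tumours, with an adjusted p of 0.234. The second Trim10 probe gave the same direction. Trim10 is also a member of the erythroid list, whose other genes are given below.

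Tmem51, a membrane protein, was 8.92 in RF-191, 9.33 in RF-44, 9.35 in RF-43 and 9.59 in CR-93 and 9.80 to 11.13 (median 10.17) in metastatic tumours. Its log2 difference was 0.98 (± 0.21 SE, adjusted p 0.368), and the groups did not overlap. Noct, a phosphatase that follows the circadian clock, had 6.74 in CR-93, 7.13 in RF-43, 7.22 in RF-44 and 7.27 in RF-191. Its metastatic range of 7.36 to 8.66 (median 8.26) began just above, with a log2 difference of 1.01 (± 0.25 SE, adjusted p 0.368). Both differences were of about the same size among the high-background arrays, at 1.05 for Tmem51 and 0.89 for Noct.

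Sgf29, a histone-reading subunit of the SAGA coactivator complex, Jmjd1c, a member of the jumonji demethylase family, and the WD-repeat protein gene Wdr73 were also apart between the groups. Their log2 differences were 0.70 (SE 0.17) for Sgf29, 0.65 (SE 0.17) for Jmjd1c and 0.80 (SE 0.21) for Wdr73, each with an adjusted p of 0.368. Jmjd1c sat near background, detected in 2 of 4 localized and 10 of 10 metastatic tumours. Nfatc2ip, whose product binds the transcription factor NFAT, ran from 6.75 to 7.004 in the 4 localized tumours and from 7.16 to 7.99 (median 7.46) in the metastatic ones, with a log2 difference of 0.58 (± 0.16 SE, adjusted p 0.392). Psmb10, a catalytic subunit of the immunoproteasome, lay at 10.12 in RF-44, 10.54 in RF-43, 10.69 in RF-191 and 10.79 in CR-93. Its metastatic levels ran from 11.06 to 11.64 in 9 tumours, with RF-104 at 12.80, for a log2 difference of 0.93 (± 0.27 SE, adjusted p 0.425).

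The other genes of smallest p on the higher side overlapped. Arhgap44, which encodes a GTPase-activating protein, was 4.83 in RF-191, 5.02 in RF-43, 6.61 in RF-44 and 8.31 in CR-93, against 7.17 to 9.13 (median 8.84) in metastatic tumours. CR-93 alone lay inside the metastatic range. The log2 difference was 2.31 (± 0.53 SE, adjusted p 0.368) over the 14 arrays. Among the high-background arrays, which leave CR-93 and RF-44 out, it was 3.59 with an adjusted p of 0.0150. Arhgap44 was detected in 2 of 4 localized and 10 of 10 metastatic tumours. The localized high-background tumours, RF-191 and RF-43, held its lowest values, so signal over background limits the size of that difference. Lars2, the mitochondrial leucyl-tRNA synthetase, lay between 5.49 and 5.83 in the 4 localized tumours. It lay at 5.35 in CRE-155 and 6.16 in RF-229 but between 8.21 and 9.88 in the other 8 metastatic tumours, giving a log2 difference of 2.52 (± 0.64 SE, adjusted p 0.368). Fn3krp, a kinase that removes sugar adducts from proteins, was likewise detected in 2 of 4 localized and 10 of 10 metastatic tumours. Its log2 difference was 1.43 (± 0.34 SE, adjusted p 0.368). Avpr1a, a vasopressin receptor, had one of 2.11 (± 0.57 SE, adjusted p 0.392), with CR-147 at 6.57 apart from the other metastatic tumours at 8.57 to 9.95.

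The 4 primaries left out by the Ibsp limit offered the same contrast in tumours that the p-values over the 14 did not use. Of the 20 genes named for the smallest p, 10 per direction, 8 had the same sign between CR-45 and FC-28 on one side and CR-65 and RF-56 on the other. These were 5 of the lower and 3 of the higher genes, against 55.1% of all genes with the same sign in both sets. With 2 tumours per arm this is a count and not a test. C1qtnf1 was among the 5, with a difference of -1.70, while Trim10 differed by 1.13 and Lars2 by -1.35. C1qtnf1, Trim10 and Efna5 were already known from earlier results over all 18 primaries, which include these 4. Their signs here, each the same as in the 14, are therefore not held out.

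Gene lists were read against the shares of all genes, 3.14% higher and 5.14% lower at an unadjusted p under 0.05, and no member of any of the 33 lists passed the adjusted test. The fibroblast and stroma list covers the matrix of connective tissue around and within the tumour. Of its 15 genes tested, 13 had a negative and 2 a positive log2 difference, the median was -1.01 against 0.01 for all genes, and 5 had an unadjusted p under 0.05. These were Fbln1, Col3a1, Mfap5, Pi16 and Postn, of which Pi16 was named after its values were seen. Leaving out 1 tumour gave between 1 of 15 (without RF-191) and 8 of 15 (without RF-104) members at that level, with medians from -1.25 to -0.68. The median was -1.48 among the high-background arrays and 0.26 among the low-background ones, where CR-93 and RF-44 face RF-104 alone.

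Fibulin-1, encoded by Fbln1, is a glycoprotein of elastic fibres and basement membranes. It was 11.45 in CR-93, 11.90 in RF-191, 12.55 in RF-44 and 13.78 in RF-43, against 9.88 to 11.69 (median 10.98). RF-104 at 11.45 and CRE-155 at 11.69 reached the lowest localized tumour, and the log2 difference of Fbln1 was -1.503 (± 0.39 SE, adjusted p 0.368), with the same direction in all 4 other probes. Col3a1, the chain of type III collagen, was 9.65 in CR-93, 11.67 in RF-44, 12.69 in RF-43 and 13.63 in RF-191 against 9.22 to 11.35 (median 10.38). The log2 difference came to -1.56 (± 0.58 SE, adjusted p 0.535). Periostin, the Postn product and an adhesive matrix protein of periosteum, had one of -1.47 (± 0.62 SE, adjusted p 0.553), and the microfibril gene Mfap5 one of -1.52 (± 0.59 SE, adjusted p 0.539). The summed level of the list was lowest in CR-93 among localized tumours, at 15.56 on the log2 scale, beside 16.18 in RF-44, 16.63 in RF-43 and 16.64 in RF-191. Metastatic tumours ran from 14.79 in FC-279 to 16.29 in RF-89, so the groups overlapped.

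The C1q and TNF related family, to which the gene of smallest p belongs, had 9 genes tested. Of these, 4 genes, C1qtnf1, C1qtnf3, C1qtnf5 and C1qtnf6, had an unadjusted p under 0.05, all with the lower level in metastatic tumours, and the list median was -1.27. The family was listed because C1qtnf1 was known from the earlier results, so its count is no separate evidence. C1qtnf3, a growth-plate member of the family, showed a wide localized spread, with 7.44 in CR-93 and 11.39, 11.73 and 12.68 in RF-43, RF-44 and RF-191. Metastatic tumours lay between 6.94 and 9.78 (median 8.53), and the log2 difference was -2.27 (± 0.77 SE, adjusted p 0.477). C1qtnf5 had a log2 difference of -1.27 (± 0.52 SE, adjusted p 0.551). Without RF-43 the list median was -0.76. It was -1.37 among the high-background and 0.17 among the low-background arrays.

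Matrix proteases and their inhibitors differed in both directions. Of 19 genes tested, 4 (Mmp14, Mmp2, Timp2 and Adamts4) stood lower in metastatic tumours and 1 (Mmp13) higher at an unadjusted p under 0.05, with a list median of -0.17. Mmp14, the membrane-type metalloproteinase that activates the Mmp2 proenzyme, was 13.86 in CR-93, 14 in RF-44, 14.42 in RF-191 and 14.96 in RF-43 against 13.01 to 13.97 (median 13.26). Its log2 difference was -0.94 (± 0.23 SE, adjusted p 0.368), and only CR-113A and RF-89 lay above CR-93. The gelatinase gene Mmp2 had a log2 difference of -0.85 (± 0.25 SE, adjusted p 0.425) and Timp2, an inhibitor that also takes part in Mmp2 activation, one of -0.92 (± 0.29 SE, adjusted p 0.440). Adamts4, an aggrecan-cleaving protease, had one of -1.07 (± 0.44 SE, adjusted p 0.551). Mmp13, the collagenase of hypertrophic cartilage and bone, had one of 0.86 and was singled out after its values were seen.

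**Figure D3:**
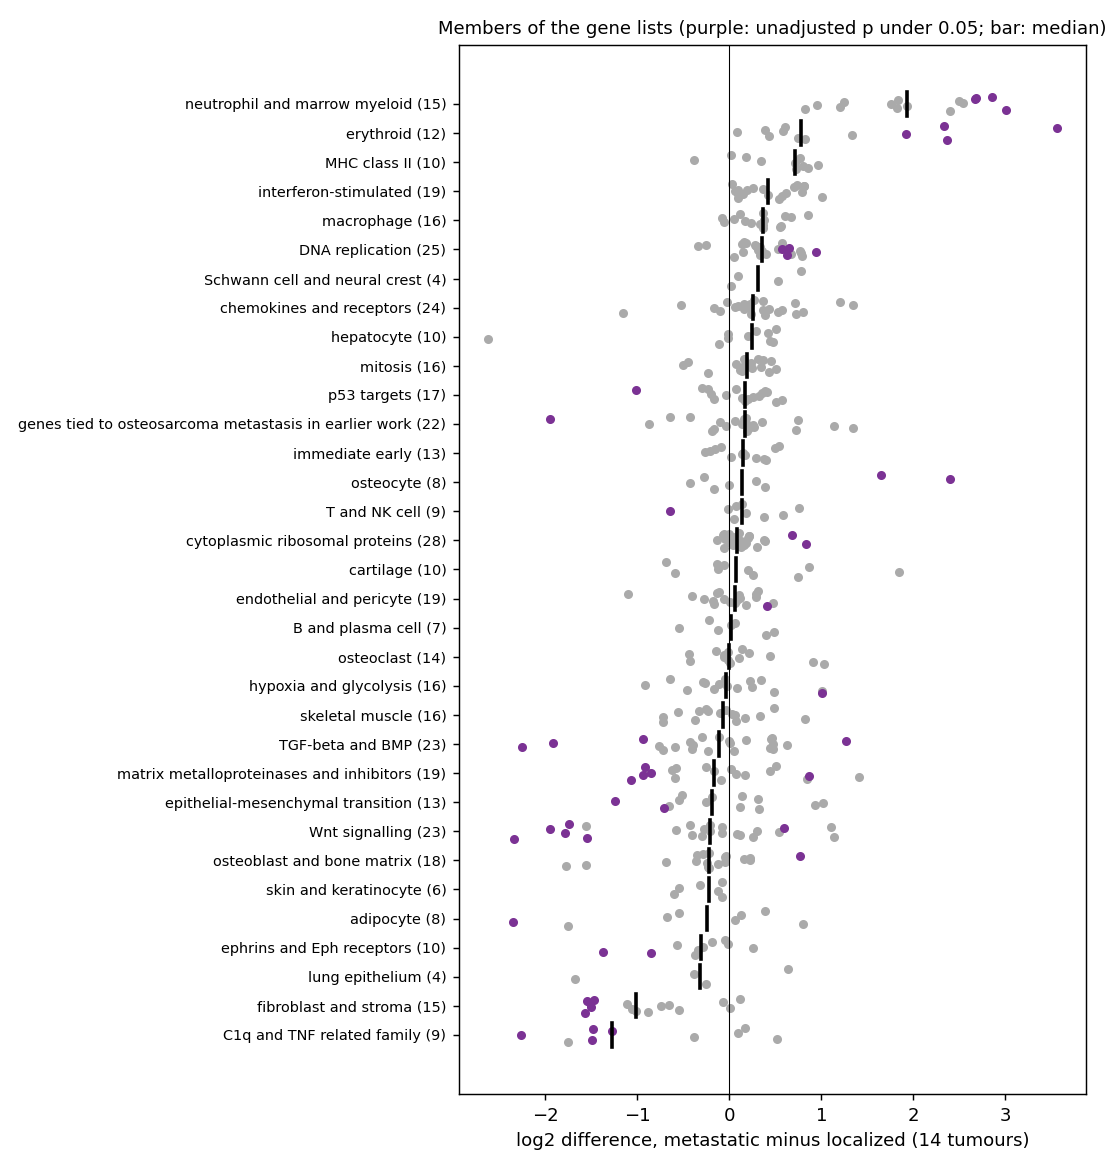
Log2 difference, metastatic over localized, of the tested members of 33 gene lists (x axis; the number tested stands beside each name), ordered by the list median (black bar); purple points have an unadjusted p under 0.05. Medians run from -1.27 for the C1q and TNF related family and -1.01 for fibroblast and stroma to 1.93 for neutrophil and marrow myeloid genes.

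Of 23 Wnt pathway genes tested, 5 stood lower at an unadjusted p under 0.05 and 1 higher, with a list median of -0.21. The lower ones were Nkd2, Lef1, Wnt5a, Apcdd1 and Axin2, of which Axin2 was singled out after its values were seen. Of these, Nkd2 was already known from earlier results of these data. Nkd2, which binds Dishevelled and dampens Wnt signals, was 8.12 in CR-93, 10.01 in RF-44, 11.22 in RF-191 and 12.04 in RF-43. Metastatic tumours held a narrow range of 7.49 to 8.99 with a median of 8.63, and all of them lay below the localized mean. The log2 difference of Nkd2 was -1.95 (± 0.53 SE, adjusted p 0.392).

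The same localized tumours were high and low for several Wnt genes. Lef1, a DNA-binding partner of beta-catenin, was 4.60 in CR-93, below detection, and 6.64, 7.62 and 8.71 in RF-44, RF-43 and RF-191. Metastatic tumours ran from 4.55 to 6.35 (median 4.96) with 3 of 10 detected, and the log2 difference was -1.78 (± 0.53 SE, adjusted p 0.440). Apcdd1, a membrane inhibitor of Wnt signalling, spanned 5.15 in CR-93, 9.86 in RF-44, 11.43 in RF-43 and 12.85 in RF-191 around a metastatic range of 6.08 to 9.90 (median 7.57). The log2 difference came to -2.33 (± 1.02 SE, adjusted p 0.573). Axin2, a feedback inhibitor and a common readout of beta-catenin activity, was 7.41 in CR-93, 8.36 in RF-44, 8.46 in RF-43 and 10.25 in RF-191. In metastatic tumours Axin2 ran from 5.78 to 8.63 with a median of 7.02, and its log2 difference was -1.55 (± 0.53 SE, adjusted p 0.477).

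In each of Nkd2, Lef1, Apcdd1, Axin2 and C1qtnf3, CR-93 was the lowest of the localized tumours, and RF-191 was the highest in 4 of them. CR-93 was also the lowest localized tumour for Hr, Fbln1, Col3a1, Mmp14 and Hoxb9, so its place was not particular to Wnt genes. Without CR-93 the log2 difference of Nkd2 was -2.69 with an adjusted p of 0.0338. Among the high-background arrays, with RF-191 and RF-43 as the localized tumours, it was -3.29 (adjusted p = 0.0150) for Nkd2, -3.08 (adjusted p = 0.0168) for Lef1 and -4.73 (adjusted p = 0.0520) for Apcdd1. These values rest on 2 or 3 localized tumours. Wnt5a, a ligand that acts mostly outside the beta-catenin branch, had a log2 difference of -1.74 (± 0.59 SE, adjusted p 0.475) over the 14 arrays. Other alternatives gave smaller or opposite differences for these genes. Nkd2 and Lef1 stayed negative in all alternatives but came up to -0.16 and -0.35. Axin2, Apcdd1 and Wnt5a each turned positive in 1 alternative, at 0.75, 0.70 and 0.58. Rnf43, a ligase that removes Wnt receptors, was below detection in all 4 localized tumours and detected in 6 of 10 metastatic ones, and its groups did not overlap. On the bound against the lowest detected signal it was at least 1.10-fold higher in metastatic tumours, with an adjusted p of 0.440.

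**Figure D4:**
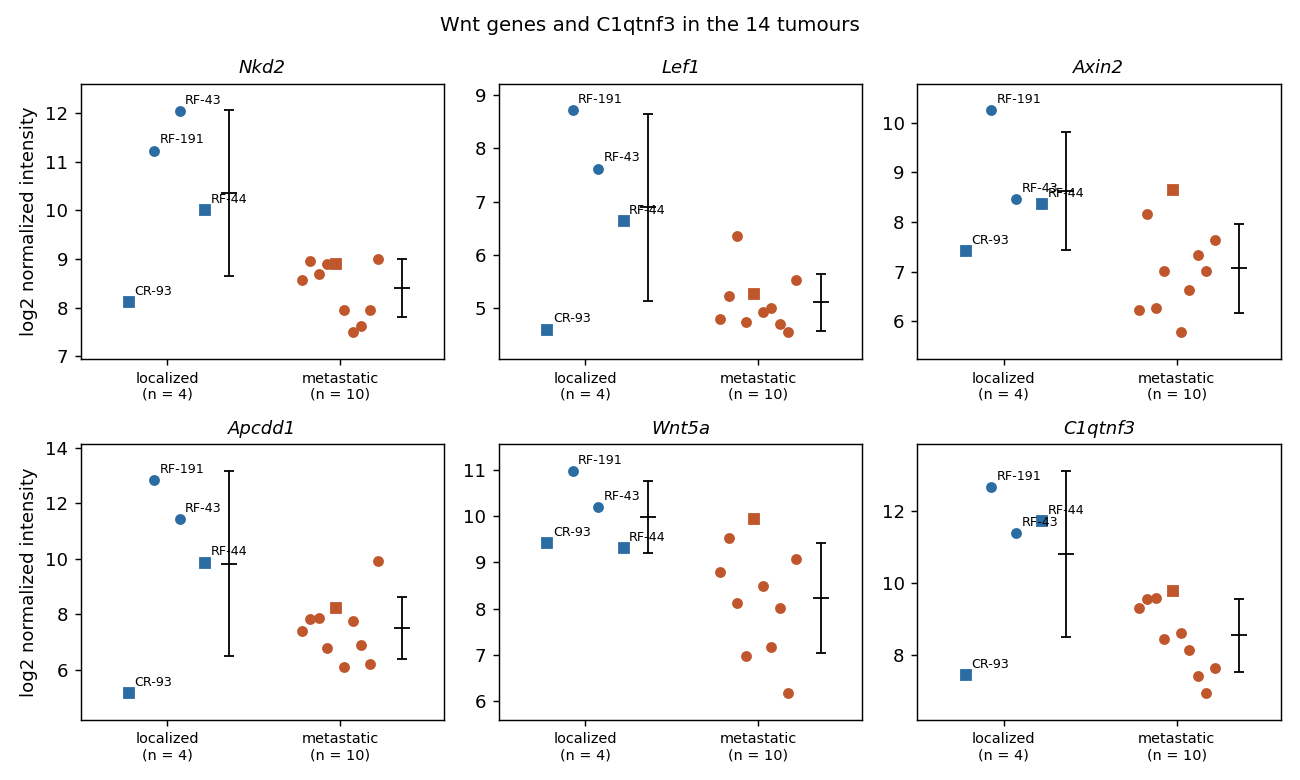
Log2 normalized intensity (y axes) of 5 Wnt genes and C1qtnf3 in localized (blue, n = 4, named by specimen) and metastatic (orange, n = 10) bone-forming primaries; squares are low-background and circles high-background arrays, and the black bar is the mean with its SD. CR-93 lies within or below the metastatic range for Nkd2, Lef1, Axin2, Apcdd1 and C1qtnf3, and RF-191 and RF-43 lie above every metastatic tumour for Nkd2, Lef1, Apcdd1 and C1qtnf3.

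Of 23 TGF-beta and BMP genes, 3 stood lower at an unadjusted p under 0.05 (Chrd, Tgfb3 and Inhba) and 1 higher (Nog), and the list median was -0.11. Tgfb3, a TGF-beta ligand, had a log2 difference of -0.94 (± 0.26 SE, adjusted p 0.392) and Inhba, the activin A subunit, one of -1.91 (± 0.68 SE, adjusted p 0.529). Noggin, encoded by Nog, is like chordin a BMP antagonist, and its values pointed the other way. Nog was detected in 1 of 4 localized tumours, CR-93 at 6.01, and in 9 of 10 metastatic ones, which ran from 5.21 to 8.37 (median 5.84). Its log2 difference was 1.27 (± 0.52 SE, adjusted p 0.551).

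The epithelial-mesenchymal transition list had 13 genes tested, of which 2 stood lower at an unadjusted p under 0.05. Snai2, the Slug transcription factor, was 10.997 in RF-191, 11.01 in CR-93, 11.41 in RF-44 and 11.66 in RF-43, above all 10 metastatic tumours at 8.90 to 10.95 (median 10.11). The log2 difference came to -1.24 (± 0.29 SE, adjusted p 0.368). Cdh11, the osteoblast cadherin, had one of -0.71 (± 0.29 SE, adjusted p 0.550), with 1 of its 2 other probes in the same direction.

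The tumours were selected on Ibsp, a member of the osteoblast and bone matrix list, so the list is given as a description. Of its 18 genes, 14 had a negative and 4 a positive log2 difference, with a median of -0.22. Over all 18 primaries, where 2 of 6 localized and 2 of 12 metastatic tumours lay below the Ibsp limit, the median of the same list was 0.57, so its sign depended on the restriction. Within background classes the median was -0.09 for high and -1.35 for low. Osteocalcin, a late osteoblast product read by Bglap and Bglap2, had log2 differences of -1.77 (± 0.85 SE, adjusted p 0.613) and -1.55 (± 0.77 SE, adjusted p 0.613). These paralogs are close copies, so their probes may share targets. Bglap ran from 12.27 in CR-93 to 15.50 in RF-43 among localized tumours and from 9.80 to 14.52 among metastatic ones. The parathyroid hormone receptor gene Pth1r was the 1 member with an unadjusted p under 0.05, at a log2 difference of 0.77 (± 0.29 SE, adjusted p 0.539).

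Of 8 osteocyte genes, 2 stood higher at an unadjusted p under 0.05 and the median was 0.14. Mepe, a phosphoprotein of osteocytes and mineralising osteoblasts, was 5.09 in RF-191, 5.55 in RF-44, 5.79 in RF-43 and 9.12 in CR-93 and ran from 6.06 to 11.73 (median 8.13) in metastatic tumours. Its log2 difference was 2.40 (± 1.01 SE, adjusted p 0.552). Phex, an endopeptidase of phosphate balance, had one of 1.64 (± 0.71 SE, adjusted p 0.568). For both genes CR-93 lay among the metastatic tumours.

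The median of the skeletal muscle list likewise depended on the restriction, at 0.99 over all 18 primaries and -0.07 over the 14, where 0 of 16 genes had an unadjusted p under 0.05. Its summed level ran from 13.10 to 15.98 in localized tumours and from 10.46 to 17.51 in metastatic ones on the log2 scale, the latter range holding the former. The median residual SD over all genes was 0.447 in the 14 tumours and 0.489 in the 18.

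Marrow genes lay on the higher side. All 15 neutrophil and marrow myeloid genes tested had a positive log2 difference, with a median of 1.93, and 4 of 15 had an unadjusted p under 0.05. S100a8 and S100a9 encode the calprotectin subunits of neutrophil cytosol. S100a8 was 7.58 in RF-191, 8.79 in CR-93, 9.16 in RF-43 and 11.78 in RF-44, and ran from 9.33 in FC-279 through a median of 11.88 to 15.20 in RF-104. The log2 difference came to 2.68 (± 1.02 SE, adjusted p 0.539), and that of S100a9 was 2.85 (± 1.06 SE, adjusted p 0.535). Chil3, encoding a chitinase-like lectin, had a log2 difference of 3.001 (± 0.89 SE, adjusted p 0.440), with RF-44 at 8.60 the 1 localized tumour inside the metastatic range of 7.64 to 13.74.

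The summed level of the myeloid list was 10.34 in CR-93, 10.79 in RF-43, 12.38 in RF-191 and 13.26 in RF-44 on the log2 scale. It ran from 11.22 in FC-279 to 16.19 in RF-379 and 17.24 in RF-104. Without RF-104 the list median was 1.36. The count of members at an unadjusted p under 0.05 varied from 1 (without CR-93 or without RF-191) to 9 (without FC-279) of 15. The labels do not give the amount of marrow in a specimen, and its part in these values was not tested.

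All 12 erythroid genes tested also had a positive log2 difference, with a median of 0.78 and 4 of 12 at an unadjusted p under 0.05, Trim10 among them. Trim10 was already known from earlier results of these data, so its place in the count is no separate evidence. Slc4a1, the band 3 anion exchanger of the red cell membrane, was 4.82 in RF-43, 4.94 in RF-191, 6.24 in CR-93 and 7.01 in RF-44. It was detected in 2 of these 4 and in 10 of 10 metastatic tumours. It ran from 5.28 in CR-113A through a median of 9.52 to 12.35 in RF-379, and its log2 difference was 3.56 (± 1.10 SE, adjusted p 0.440). Alas2, the erythroid enzyme of the opening step of haem synthesis, had one of 2.36 (± 0.97 SE, adjusted p 0.551) and the beta-globin gene Hbb-b2 one of 1.92 (± 0.64 SE, adjusted p 0.465). The summed erythroid level was 12.23 in RF-43, 12.57 in RF-191, 14.87 in RF-44 and 15.04 in CR-93 against 12.66 in CR-113A to 15.99 in RF-364, with overlap. The 2 localized tumours that were low for erythroid RNA, RF-43 and RF-191, were the high-background ones, and without RF-191 the list median was 0.51.

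**Figure D5:**
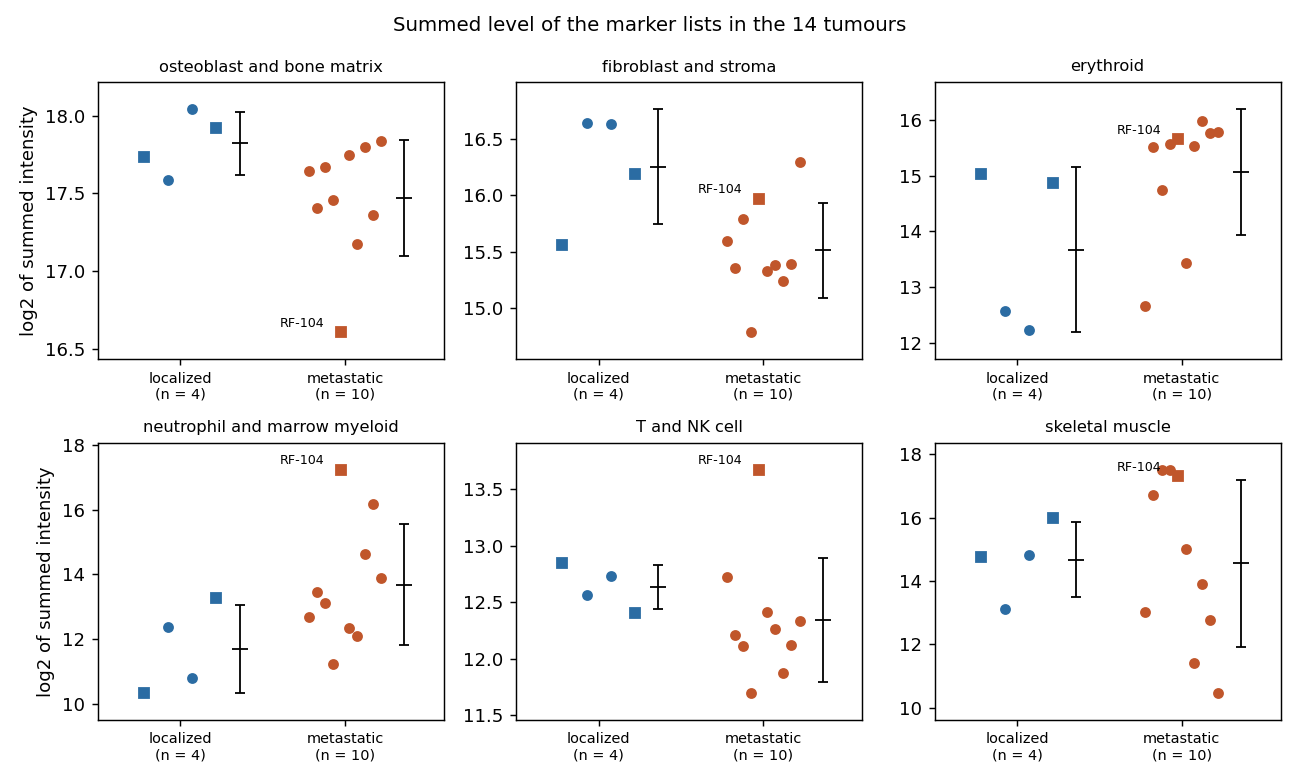
Log2 of the summed intensity of 6 marker lists (y axes) in localized (blue, n = 4) and metastatic (orange, n = 10) bone-forming primaries; squares are low-background and circles high-background arrays, the black bar is the mean with its SD, and the metastatic tumour RF-104 is named. RF-104 has the highest neutrophil (17.24) and T and NK cell (13.67) level and the lowest bone level (16.61), and the groups overlap in each list.

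Of 25 DNA replication genes, 23 had a positive log2 difference, the median was 0.36 and 4 had an unadjusted p under 0.05. These were the licensing factor gene Cdt1, with a log2 difference of 0.62 (± 0.24 SE, adjusted p 0.539), the polymerase alpha subunit genes Prim1 and Pola2, and the helicase subunit gene Mcm5. Prim1 was detected in 0 of 4 localized and 8 of 10 metastatic tumours. Mcm5 was 10.13 in RF-44, 10.25 in RF-191, 10.58 in CR-93 and 10.82 in RF-43, and ran from 9.65 in RF-89 through a median of 11.60 to 12.26 in FC-279, with a log2 difference of 0.94 (± 0.40 SE, adjusted p 0.551). The count at an unadjusted p under 0.05 ranged from 0 (without RF-44) to 12 (without RF-89) of 25, and was 0 among the high-background arrays. Of 16 mitosis genes, 0 had an unadjusted p under 0.05, and the median was 0.20.

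Most immune lists had no member on either side. Of 16 macrophage, 19 interferon-stimulated, 10 MHC class II and 24 chemokine and receptor genes, 0 had an unadjusted p under 0.05, with medians of 0.37, 0.42, 0.72 and 0.26. Among the high-background arrays these medians were 0.13, -0.28, 0.44 and -0.23, so the sign turned for the interferon-stimulated and the chemokine lists. Leaving out 1 tumour moved the macrophage median to 0.13 (without CR-93) or 0.58 (without RF-191), and the interferon-stimulated one to 0.25 (without CR-93) or 0.97 (without RF-191). The MHC class II median became 0.32 without RF-104, and the chemokine and receptor median -0.05 without CR-93 and 0.64 without RF-191. RF-104 held the highest values of several of these lists. Its summed T and NK cell level was 13.67 and its level of Cd3e, a T cell receptor component, was 10.74, where the next metastatic tumour had 7.03. Of 9 T and NK cell genes, 1 stood lower and 0 higher at an unadjusted p under 0.05. The lower one was Cd8b1, with a mean log2 intensity of 12.21 in localized and 11.56 in metastatic tumours. Its 1 other probe did not give the same direction. The summed level of the list was 12.40 to 12.85 in localized tumours, so Cd8b1 made up much of it there.

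The remaining lists had at most 2 members at an unadjusted p under 0.05 in a direction. They were cartilage, osteoclast, B and plasma cell, endothelial and pericyte, adipocyte, Schwann cell and neural crest, lung epithelium, hepatocyte, skin and keratinocyte, p53 targets, hypoxia and glycolysis, immediate early and cytoplasmic ribosomal protein genes. Among 22 genes tied to osteosarcoma metastasis in earlier work, Nkd2 was the 1 with an unadjusted p under 0.05 and the list median was 0.17. Nkd2 was already known from earlier results of these data, so this count is no separate evidence.

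Genes named by earlier results over all 18 primaries were read again in the 14, most of which those results had used. Scmh1, a Polycomb group protein, had no overlap between the groups in the 14, with 8.57 in CR-93, 8.67 in RF-44, 8.87 in RF-43 and 9.14 in RF-191 over 7.998 to 8.53 (median 8.32) in metastatic tumours. Its log2 difference was -0.58 (± 0.15 SE, adjusted p 0.368) in the 14 and -0.75 in the 18 tumours. Epb41l1, a membrane skeleton protein, had -0.99 (± 0.24 SE, adjusted p 0.368) in the 14 and -1.06 in the 18. Bmx, a Tec family tyrosine kinase, had -0.69 (± 0.18 SE, adjusted p 0.368) in the 14 and -0.79 in the 18, with RF-104 at 6.61 above the localized RF-43 at 6.42. The higher genes of those results overlapped between the groups. The ribosomal protein genes Rps3a1 and Rpl29 had 0.68 (± 0.22 SE, adjusted p 0.455) and 0.83 (± 0.31 SE, adjusted p 0.535) in the 14, against 0.91 and 1.03 in the 18. Wdr82, a WD-repeat protein gene, had 2.03 (± 0.62 SE, adjusted p 0.440) in the 14 and 2.10 in the 18, but 0 of its 3 other probes gave the same direction.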

How the data were processed

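The bead files deposited by the authors hold, per the file headers, an average signal per probe, which is an un-normalized intensity, and a detection score from 0 to 1. The series matrix deposited by the authors holds log2 values whose probes rank as in the bead files on every array, with a median of 5.9. Bead file probes were tied to series matrix probes, and so to gene names, by these ranks. The match was exact for all 45281 probes, and the gene names of the intensities rest on it. Per the submitters' processing notes, BeadStudio was used, with no version or role given.

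Of 45281 probes, 34885 had 1 gene symbol in the platform annotation, 18 had several and 10378 had none. Intensities were background-corrected and quantile normalized over all 27 arrays with neqc in limma 3.58.1 under R 4.3.3, with an offset of 16 and 1 minus the detection score as the detection p-value. Each gene was read by its brightest probe, and was tested if detected (p under 0.05) on at least 4 of the 14 arrays. The number of arrays limits the precision.

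Groups were compared over the 14 arrays by limma (lmFit, then eBayes; two-sided tests), and p was adjusted over all 11865 genes by Benjamini-Hochberg. The tumours, gene lists and tests were chosen with earlier results of these data known. Named genes were the 10 of smallest p and the 5 of widest gap per direction, from each list the 4 members of smallest p, any without overlap and the extremes of fold change, and genes of the earlier results; clone and predicted names were left out. Axin2, Mmp13, Pi16, Hoxb6, Hoxb7 and Hoxb9 were chosen after their values were seen. Alternatives covered normalization, filter, probe choice, test, covariates and the tumours included. The fit was tested on simulated data. Trp53 was not analysed here.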

Additional observations from a re-analysis of the deposited data

Results flagged for a closer look

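Among 214 sets of values, each a named gene or the summed level of a list in 1 group of tumours, 17 held a tumour far from the others of its group by Dixon's criterion. Chance flags about 1 in 20 such sets, and genes of 1 tumour are not independent. Levels are on the log2 scale, and no cause was tested.

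The metastatic tumour RF-104, a low-background array, stood apart for the immunoproteasome gene Psmb10 at 12.80, the T cell gene Cd3e at 10.74, the summed T and NK cell level at 13.67 and, on the low side, the collagen gene Col1a2 at 11.95. The metastatic FC-279 stood apart on the high side for Adipoq, the adipocyte hormone adiponectin, at 12.31, for Hoxb9 at 6.72 and for the summed level of the hepatocyte list at 13.56. That sum is nearly all Cyp2e1, a liver and fat cytochrome gene for which FC-279 also stood apart, at 13.51, and the mean level over the list was 5.95 there against 7.28 in RF-89. The metastatic CR-147 was low for Avpr1a at 6.57 and for the summed levels of matrix metalloproteinases and inhibitors at 16.08 and of the epithelial-mesenchymal transition list at 13.62. RF-379 was high for Nfatc2ip at 7.99, and RF-212 had a summed immediate early level of 15.09. Among localized tumours, CR-93 was high for Nog at 6.01, RF-43 was low for Cyp2e1 at 6.20, and RF-191 was high for the summed lung epithelium level at 11.85 and for the summed interferon-stimulated level at 14.84.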

How the results depend on the processing

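The number of genes past the threshold, 0 in the 14 tumours, was 1 with array weights (C1qtnf1), 10 among the high-background arrays alone, 1 over all 18 primaries (C1qtnf1) and 2 in a fit over all 27 arrays (Chrd and Fscn3). Leaving out each tumour in turn gave 0 to 12, the most without CR-93, and the other alternatives gave 0. C1qtnf1 had the lower level in metastatic tumours in 30 of 30 alternatives, with log2 differences from -1.72 to -1.32 and adjusted p from 0.0241 to 0.429. The cause of these shifts was not tested. The alternatives refit largely the same arrays, and the Ibsp minimum of 12 keeps the same 14 tumours. A count over them is therefore not a count of separate checks. The count of genes at an unadjusted p under 0.05 was 285 higher and 564 lower with median scaling, and 797 and 509 among the low-background arrays, with 2 localized tumours against 1. The median of the neutrophil and marrow myeloid list was positive in 30 of 30 alternatives (1.36 to 5.63), as was that of the erythroid list (0.51 to 1.63). With 1 tumour left out, the myeloid median ran from 1.36 to 2.73. Among the low-background arrays RF-104, which had the highest summed myeloid level, is the only metastatic tumour. The fibroblast and stroma median was negative in 29 of 30 (-1.48 to 0.26), the exception being the low-background arrays alone. The Wnt median was 0.02 without RF-191. No paired analysis was possible because the specimens of the groups differ. Genes dim in either group, such as Trim10, Lef1, Rnf43, Arhgap44, Fn3krp, Slc4a1, Prim1, Hoxb6 and Hoxb9, are limited by signal over background.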

Other observations

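Homeobox genes of the Hoxb cluster, which pattern the body axis and keep a positional code in adult mesenchyme, were singled out after their values were seen, so they are described here and carry no test. All 7 Hoxb genes tested had a negative log2 difference, metastatic over localized, from -2.55 for Hoxb9 to -0.16 for Hoxb4, with a median of -1.32. The 6 Hoxa genes had a median of -0.47, the 4 Hoxc genes one of -0.51 and the 4 Hoxd genes one of -0.35. Hoxb9 lay at 4.67 in CR-93, 7.70 in RF-44, 8.80 in RF-43 and 8.93 in RF-191, against 4.53 to 5.43 in 9 metastatic tumours and 6.72 in FC-279. In the fits over all genes, Hoxb9 was among those past the threshold without CR-93 and among the high-background arrays alone. Hoxb6 was 6.27 in CR-93, 6.96 in RF-44, 6.99 in RF-191 and 8.01 in RF-43, against 4.62 to 6.99 with a median of 5.001. Hoxb9 was detected in 3 of 4 localized and 2 of 10 metastatic tumours, and Hoxb6 in 4 of 4 and 3 of 10. Most metastatic values of both genes are thus background readings, which limits the size of their differences. Hoxb7 ran from 10.14 to 11.31 in the 4 localized tumours and from 8.14 to 10.76, with a median of 8.68, in the metastatic ones. FC-279 held the highest metastatic level of all 3 genes. The labels give no skeletal site, and in the 4 primaries outside the Ibsp limit the metastatic pair stood higher, by 1.08 for Hoxb9, 1.99 for Hoxb6 and 2.23 for Hoxb7 on the log2 scale.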
